A study of Mus musculus with 24 samples.

Results

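TEAD binding was compared between livers that expressed an activated YAP transgene (tet-YAP) and wild-type livers. The members were all peaks of both TEAD lists, 32486 in tet-YAP and 33417 in wild-type liver, which made 65903 of the 162515 TEAD peaks listed over 4 genotypes and came from 2 of 24 samples. A tet-YAP peak that shared at least 1 bp with a wild-type peak was called kept, and a tet-YAP peak with no such partner was called gained. A wild-type peak with no tet-YAP partner was called lost.

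Binding was measured by chromatin immunoprecipitation with sequencing (ChIP-seq) in mouse liver after 2 days of doxycycline. The tet-YAP mice had the genotype R26-rtTA;tet-YAP and the wild-type mice R26-rtTA;WT, so that both carried the doxycycline-dependent activator rtTA from the Rosa26 locus. The transgene encodes YAP S127A, a form that the Hippo kinases cannot hold in the cytoplasm through that serine. TEAD lists from tet-Myc liver and from tet-Myc/YAP liver, which carried both transgenes, were used here only to look up the same sites. Each antibody had 1 library per genotype, the sources used here do not say how many animals contributed to each library, and no difference between genotypes could be tested. The intervals printed are Wilson 95% intervals, which cover counting error only and not the spread between animals. In whole liver, binding in fewer cells and weaker binding in each cell cannot be told apart.

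TEAD proteins are the DNA-binding partners through which the co-activators YAP and TAZ reach the genome. When the Hippo pathway is active, its kinases phosphorylate YAP and keep it out of the nucleus, and in liver the forced expression of active YAP is known to drive hepatocyte proliferation and organ growth. H3K4me3 marks promoters, H3K4me1 marks enhancers as well as the flanks of promoters, and H3K27ac marks active elements of both kinds.

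The TEAD libraries were of like depth, with 32.4 M reads in tet-YAP and 33.1 M in wild-type liver. Fold enrichment, the height of a peak over the local background as the peak caller gave it, had a median of 6.28 in tet-YAP and 5.79 in wild-type liver. Median peak width was 521 bp in tet-YAP and 584 bp in wild-type liver. The fragment size that the caller used, which is also the narrowest peak it reported, was 294 bp for tet-YAP and 322 bp for wild-type, so the width difference moved with this setting and its part in the result was not tested. The tet-YAP TEAD list was thus slightly shorter, narrower and more enriched than the wild-type list.

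Most TEAD sites were shared. Of the tet-YAP peaks, 24835 (76.4%) were kept and 7651 (23.6%, 23.1 to 24.0) were gained, while 24384 wild-type peaks were kept and 9033 (27%, 26.6 to 27.5) were lost. The kept counts differ because 511 tet-YAP peaks covered 2 or more wild-type peaks and 928 wild-type peaks covered 2 or more tet-YAP peaks. The nearest wild-type peak lay at a median of 6529 bp from a gained peak, and 2.47% of gained peaks had one within 100 bp, 18.4% within 1 kb and 44.8% within 5 kb. The nearest tet-YAP peak lay at a median of 7488 bp from a lost peak, and 2.16% of lost peaks had one within 100 bp, 18.1% within 1 kb and 41.7% within 5 kb. The gained share ranged between 21.3% and 25.8% over the 19 autosomes and was 32.6% on the X chromosome (88 of 270 peaks), and the lost share ranged between 24.2% and 28.6% over the autosomes and was 40.1% on the X chromosome (124 of 309). The X chromosome thus had the higher turnover in both directions.

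Gained and lost peaks were weak and narrow peaks of their own lists. Gained peaks had a median fold enrichment of 5.33 and a median width of 391 bp, against 6.68 and 576 bp for kept peaks of the tet-YAP list. Lost peaks had a median fold enrichment of 4.91 and a median width of 423 bp, against 6.33 and 658 bp for kept peaks of the wild-type list. The median −log10 q, the caller's score of how far a peak stands above background, was 9.45 at gained and 15.4 at kept tet-YAP peaks, and 8.94 at lost and 15.6 at kept wild-type peaks.

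The turnover was unequal at the strong end. At −log10 q under 10 the gained share was the smaller, with 39.8% of tet-YAP peaks gained against 50.6% of wild-type peaks lost between 5 and 10. Between 10 and 20 the shares were close, at 24.0% gained (23.3 to 24.7) and 23.5% lost (22.7 to 24.2). At 20 and above, 639 of 9901 tet-YAP peaks (6.45%, 5.99 to 6.95) were gained and 237 of 9100 wild-type peaks (2.60%, 2.30 to 2.95) were lost. At 40 and above, 94 of 3690 tet-YAP peaks (2.55%, 2.09 to 3.11) were gained and 4 of 2635 wild-type peaks (0.152%, 0.0590 to 0.390) were lost. Strong TEAD peaks without a counterpart were therefore listed mainly on the tet-YAP side. The same order was found in a liver without the YAP transgene: 465 of 8154 tet-Myc TEAD peaks at 40 and above (5.70%) had no wild-type peak, and 4 of the 2635 wild-type peaks (0.152%) had no tet-Myc peak. In tet-Myc/YAP liver 2260 of 14628 such peaks (15.4%) had no wild-type peak. These lists share the wild-type library, and tet-Myc and tet-Myc/YAP had higher median fold enrichments, 7.02 and 7.79, than tet-YAP.

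**Figure D1:**
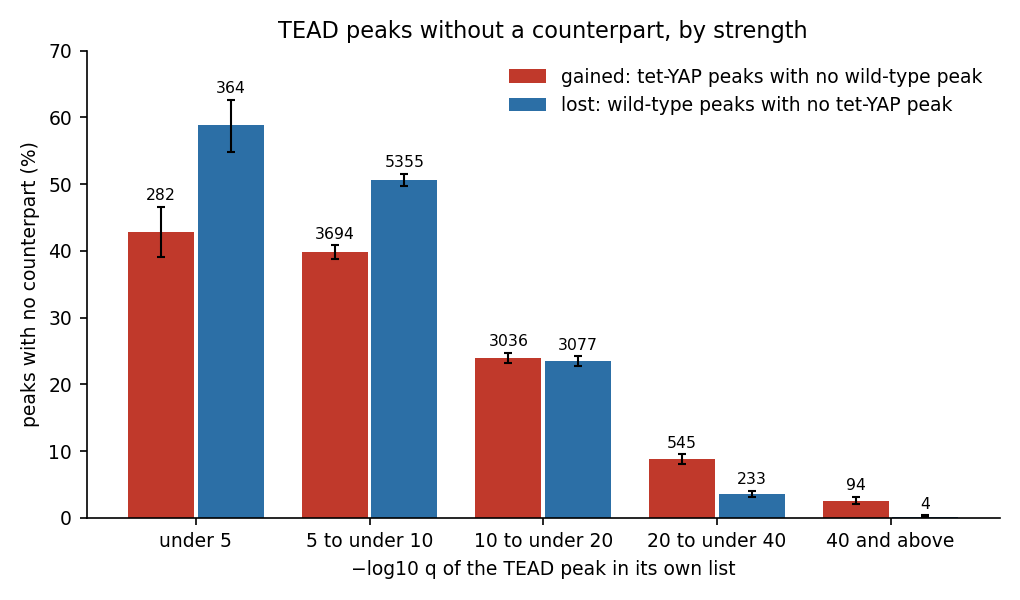
Share (%) of TEAD peaks with no counterpart in the other genotype, by −log10 q of the peak in its own list. Red bars are gained tet-YAP peaks and blue bars lost wild-type peaks, error bars are Wilson 95% intervals and the number above a bar is its count of peaks. The gained share is below the lost share under 10 and above it from 20, with 94 gained and 4 lost peaks at 40 and above.

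The strongest peaks give the scale of these classes. In mm9, the genome build of the files, the strongest kept peak lay at chr11:80631305-80632380, with a fold enrichment of 59.5 in tet-YAP and 48.1 in wild-type liver, and it had no wild-type histone mark but H3K27ac and a YAP peak (fold enrichment 16.5) in tet-YAP liver. Kept peaks at chr11:32504655-32505842 and chr16:13108912-13110225 had TEAD fold enrichments of 57.8 and 63.8 in tet-YAP liver, and 47.6 and 60.3 in wild-type liver. A YAP peak lay on all 3 in both YAP-expressing livers. TEAD fold enrichment at them was 102, 76.9 and 81.9 in tet-Myc liver, above the tet-YAP values.

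The strongest gained peak, at chr16:89346877-89347774, had a TEAD fold enrichment of 55.0 in tet-YAP liver and 90.6 in tet-Myc/YAP liver, and no peak in tet-Myc or wild-type liver. It lay 711182 bp from the nearest wild-type TEAD peak, outside every wild-type histone mark and outside tet-YAP H3K27ac. The gained peak at chr11:16583279-16584189 had fold enrichments of 30.2 in tet-YAP, 85.2 in tet-Myc/YAP and 8.71 in tet-Myc liver, lay in a wild-type H3K4me1 region, and had H3K27ac in tet-YAP but not in wild-type liver. The gained peak at chr14:69422253-69423066 had fold enrichments of 29.8 in tet-YAP liver and 48.7 in tet-Myc/YAP liver, no peak in tet-Myc liver, and H3K27ac in both tet-YAP and wild-type liver. All 3 were higher in tet-Myc/YAP than in tet-YAP liver. None overlapped a YAP peak of tet-YAP liver, while the chr16 and chr14 sites overlapped a YAP peak of tet-Myc/YAP liver, with YAP fold enrichments of 5.77 and 7.10.

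The strongest lost peaks were weaker. They lay at chr8:87549115-87549809, chrX:166414658-166418422 and chr2:104524800-104526020, with wild-type fold enrichments of 13.6, 8.25 and 10.9. All 3 overlapped wild-type H3K4me3, had H3K27ac in both genotypes, and had TEAD peaks in tet-Myc/YAP and tet-Myc liver, with fold enrichments of 33.1 in tet-Myc/YAP and 23.3 in tet-Myc liver at the chr2 site. The chr8 site lay 792 bp from a tet-YAP TEAD peak. The strongest distal lost peak, at chr14:46159116-46160231, had a wild-type fold enrichment of 9.82, and 4.85 in tet-Myc/YAP and 3.83 in tet-Myc liver. The strongest unmarked lost peak, at chr1:153667458-153668189, had 11.2 in wild-type and 6.22 in tet-Myc liver, and no TEAD peak in tet-Myc/YAP liver.

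The position of a peak was read from wild-type chromatin, because the gene tables at hand are on another build. A peak over wild-type H3K4me3 was called promoter-like, a peak over H3K4me1 or H3K27ac without H3K4me3 was called distal, and the rest had no wild-type mark. Gained TEAD peaks were less often promoter-like than kept peaks. Of gained peaks 35.4% (34.3 to 36.5) were promoter-like, 43.9% distal and 20.7% (19.8 to 21.6) without a mark, against 60.2%, 32.4% and 7.41% of kept peaks and 54.3%, 35.1% and 10.5% of all tet-YAP peaks. Of lost peaks 48.5% (47.5 to 49.6) were promoter-like, 36.3% distal and 15.2% without a mark, against 56.6%, 33.8% and 9.6% of all wild-type peaks. Both classes were shifted away from promoter-like positions relative to their own list, gained peaks further than lost peaks. Position used wild-type marks only, and lost but not gained peaks were listed in wild-type liver. The part of this in the order was not tested. H3K4me3 of tet-YAP liver overlapped 31.7% of gained and 40.9% of lost peaks, against 47.5% of all tet-YAP and 48.8% of all wild-type peaks.

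The order of the promoter-like and unmarked shares held with kept peaks given the strength or the width of the class. With kept peaks reweighted to the −log10 q of gained peaks, 61.5% were promoter-like and 7.35% unmarked. With kept peaks reweighted to their widths, the shares were 55.5% and 10.3%. For lost peaks, kept wild-type peaks reweighted by −log10 q were 54.1% promoter-like and 8.58% unmarked, and reweighted by width 50.3% and 11.4%, a smaller gap than for gained peaks. The distal order of lost peaks turned: 36.3% of lost peaks were distal, against 32.9% of kept wild-type peaks as listed, 37.3% reweighted by −log10 q and 38.3% reweighted by width.

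**Figure D2:**
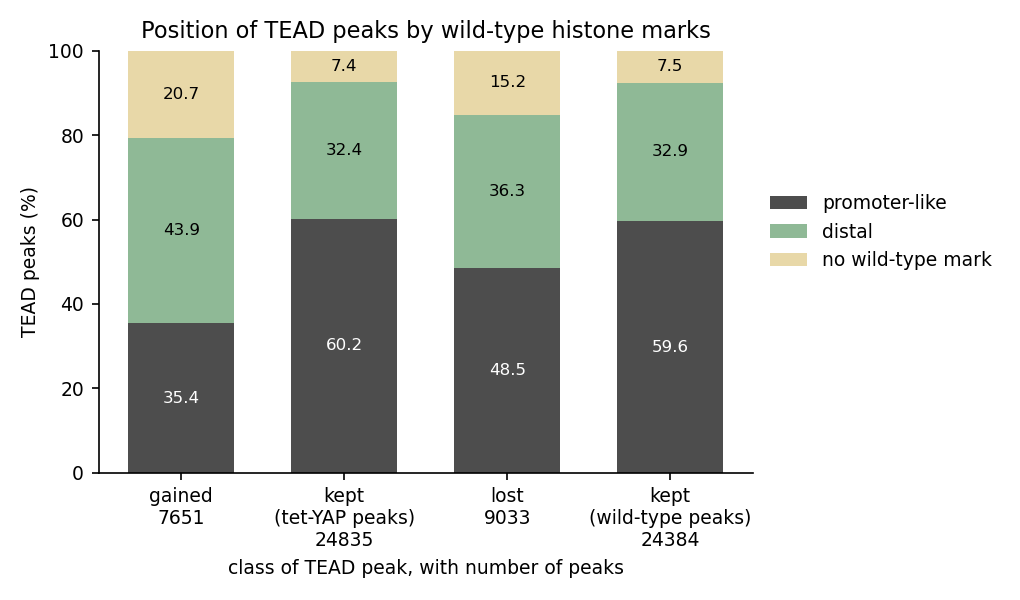
Share (%) of gained, kept and lost TEAD peaks that were promoter-like (wild-type H3K4me3), distal (wild-type H3K4me1 or H3K27ac without H3K4me3) or without a wild-type mark, with the number of peaks under each bar. Gained peaks hold 35.4% promoter-like peaks, and the kept tet-YAP peaks beside them 60.2%.

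The shift grew with the strength of the gained peaks. At −log10 q of 20 and above, 17.2% of gained peaks were promoter-like and 34.1% had no mark, against 58.1% and 7.20% of kept peaks. At 40 and above, 6 of 94 gained peaks (6.38%) were promoter-like, 42 (44.7%) distal and 46 (48.9%, 39.1 to 58.9) unmarked, against 55.6%, 35.9% and 8.48% of kept peaks. Strong lost peaks were less shifted: at 20 and above, 58.6% of the 237 (52.3 to 64.7) were promoter-like and 15.6% (11.5 to 20.8) unmarked, against 66.4% and 5.78% of kept wild-type peaks. Counted the other way round, at 20 and above 2.00% of promoter-like, 8.82% of distal and 24.6% of unmarked tet-YAP peaks were gained, while 2.31%, 2.41% and 6.74% of these kinds of wild-type peaks were lost. The excess of strong gained over strong lost peaks was thus found at distal and unmarked positions, and the promoter-like shares were within each other's intervals (1.67 to 2.41 gained, 1.96 to 2.72 lost).

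The strongest gained promoter-like peaks lay at chr3:27053789-27054628, chr14:55191551-55192281 and chr11:72286988-72287743, with fold enrichments of 13.4, 15.1 and 14.1 in tet-YAP liver. All 3 had TEAD peaks in tet-Myc/YAP and tet-Myc liver and H3K27ac in both tet-YAP and wild-type liver, and the chr14 peak also carried a YAP peak (fold enrichment 13.2). The unmarked gained peaks that followed the chr16 site in strength lay at chr1:81714724-81715375 and chr8:82130369-82131181, with fold enrichments of 23.8 and 22.2 in tet-YAP liver, and 62.0 and 43.3 in tet-Myc/YAP liver. H3K27ac in tet-YAP liver covered the chr8 site and not the chr1 site.

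YAP, the transgene product, was found at few gained sites. A tet-YAP YAP peak overlapped 44 gained peaks (0.575%, 0.429 to 0.771) and 984 kept peaks (3.96%, 3.73 to 4.21), against 3.16% of all tet-YAP TEAD peaks. It also overlapped 39 lost peaks (0.432%, 0.316 to 0.591), against 3.05% of all wild-type TEAD peaks. Counted from the YAP list, which holds 1328 peaks, 1092 (82.2%) lay on kept, 46 (3.46%) on gained and 190 (14.3%) on no tet-YAP TEAD peak. The YAP peaks of tet-YAP liver thus lay mainly on TEAD sites that were also listed in wild-type liver.

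Part of this gap moved with peak strength. Kept peaks reweighted to the −log10 q of gained peaks overlapped YAP in 1.16%, and kept peaks of −log10 q 5 to 10 in 0.358%, close to 0.298% of gained peaks in that range. At 10 to 20 the shares were 0.527% of gained and 1.33% of kept peaks, at 20 to 40 they were 1.83% and 3.18%, and at 40 and above 7.45% (7 of 94, 3.65 to 14.6) and 18.2%. The YAP library was fixed by another method than the TEAD libraries, with an added protein crosslinker, and the caller used a fragment size of 56 bp for it, with a median peak width of 98 bp. The part of these settings in the short YAP list was not tested, and a gained site without a YAP peak is not shown to lack YAP.

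The 44 gained peaks with YAP were stronger than other gained peaks, with a median TEAD fold enrichment of 6.97 against 5.33. Of these, 8 were promoter-like, 12 distal and 24 without a wild-type mark, 24 had tet-YAP H3K27ac, and TEAD was also listed at 37 in tet-Myc/YAP and at 32 in tet-Myc liver. Over all gained peaks, 35.4% were promoter-like, 43.9% distal and 20.7% unmarked, and 74.3% had tet-YAP H3K27ac. TEAD was listed at 79.0% of all gained peaks in tet-Myc/YAP and at 60.2% in tet-Myc liver. YAP itself was listed at 4 of the 44 in tet-Myc/YAP liver, against 10.2% of all gained and 31.7% of all tet-YAP TEAD peaks. The caller used a fragment size of 364 bp for that YAP list and 56 bp for the tet-YAP list. The strongest of the 44 peaks lay at chr10:43208948-43209805, with fold enrichments of 19.1 for TEAD and 15.6 for YAP in tet-YAP liver. Peaks at chr8:124757880-124758574 and chr6:37680475-37681128 followed, with TEAD fold enrichments of 20.2 and 17.1 and YAP fold enrichments of 18.0 and 18.6. The chr10 peak was in wild-type H3K4me1 and H3K27ac, and the other two had no wild-type mark.

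Myc, a transcription factor that binds mainly at active promoters, and RNA polymerase II were also less frequent at gained than at kept sites. Myc of tet-YAP liver overlapped 11.8% of gained peaks (11.0 to 12.5), 35.2% of kept peaks (34.6 to 35.8) and 29.7% of all tet-YAP TEAD peaks, and 14.8% of lost peaks against 29.9% of all wild-type TEAD peaks. RNA polymerase II of tet-YAP liver overlapped 36.2% of gained peaks (35.1 to 37.3) and 60.1% of kept peaks (59.5 to 60.7), against 54.5% of all tet-YAP TEAD peaks, and 39.8% of lost peaks, against 54.5% of all wild-type TEAD peaks. Gained and lost peaks resembled each other in this respect more than either resembled kept peaks.

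The order of gained and kept peaks held at promoter-like and distal positions. At unmarked positions the polymerase shares, 3.28% of gained (2.51 to 4.28) and 3.80% of kept peaks (3.02 to 4.78), had overlapping intervals. At promoter-like positions Myc overlapped 24.0% of gained, 49.3% of kept and 26.7% of lost peaks, and RNA polymerase II 68.8%, 82.6% and 65.2%. At distal positions Myc overlapped 6.93% of gained, 16.4% of kept and 5.01% of lost peaks, and RNA polymerase II 25.4%, 31.3% and 21.2%. The polymerase gap was thus smaller within a position than over all peaks, while the Myc share of kept peaks was over 2 times that of gained peaks at both. With kept peaks reweighted to the −log10 q of gained peaks the Myc share was 31.7% and the polymerase share 58.5%, and reweighted to their widths 25.9% and 51.5%.

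**Figure D3:**
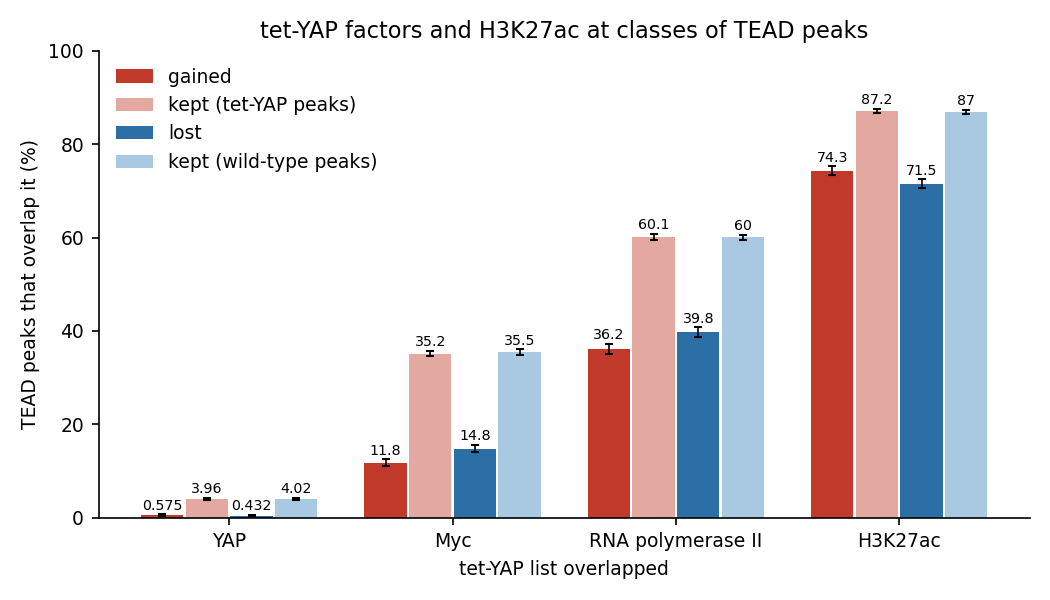
Share (%) of gained, kept and lost TEAD peaks that overlap a YAP, Myc, RNA polymerase II or H3K27ac region of tet-YAP liver, with kept peaks counted on the tet-YAP and on the wild-type list and Wilson 95% intervals as error bars. Over all positions together, each is less frequent at gained than at kept tet-YAP peaks. The shares of YAP, Myc, RNA polymerase II and H3K27ac are 0.575%, 11.8%, 36.2% and 74.3% at gained peaks. At kept tet-YAP peaks they are 3.96%, 35.2%, 60.1% and 87.2%. At distal positions, not drawn separately, H3K27ac covers 84.6% of gained and 84.5% of kept tet-YAP peaks.

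Read together, YAP, Myc and RNA polymerase II of tet-YAP liver were all absent at 61.5% of gained, 34.8% of kept and 58.4% of lost peaks. The shares were 41.1% of all tet-YAP and 41.2% of all wild-type TEAD peaks. Myc and polymerase without YAP were present at 9.89% of gained, 30.5% of kept and 13.3% of lost peaks. Over all tet-YAP and all wild-type TEAD peaks these were 25.7% and 26.1%. Polymerase alone was present at 26.2%, 27.4% and 26.4%, a share that hardly differed between the classes.

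RNA polymerase II at gained sites could also be read in wild-type liver, where 26.1% of gained, 52.5% of kept and 36.2% of lost peaks overlapped it. The shares were 46.3% of all tet-YAP and 48.1% of all wild-type TEAD peaks. The wild-type polymerase library held 20.9 M reads, against 37.7 M in tet-YAP liver, and depth and genotype cannot be told apart there. Over all positions together, the lost share was above the gained share in both libraries, by more in the wild-type one. Within positions the order in the tet-YAP library was the reverse. Its polymerase overlapped 68.8% of gained and 65.2% of lost promoter-like peaks, and 25.4% and 21.2% of distal peaks. Wild-type polymerase overlapped 54.7% of gained and 60.6% of lost promoter-like peaks, and 14.5% and 18.1% of distal peaks.

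H3K27ac covered most gained sites in both genotypes. In tet-YAP liver 74.3% of gained peaks (73.3 to 75.3) and 87.2% of kept peaks lay in H3K27ac regions, against 84.1% of all tet-YAP TEAD peaks, and 71.5% of lost peaks did (70.6 to 72.5), against 82.8% of all wild-type TEAD peaks. In wild-type liver the shares were 68.7% of gained and 85.1% of kept peaks, against 81.2% of all tet-YAP TEAD peaks. For lost peaks the share was 74.0%, against 81.9% of all wild-type TEAD peaks. Most gained TEAD peaks therefore lay in chromatin that carried H3K27ac without the transgene as well, but less often than all tet-YAP peaks. Within positions the tet-YAP H3K27ac shares of gained and kept peaks were closer than over all peaks. They were 95.5% and 97.4% at promoter-like, 84.6% and 84.5% at distal, and 16.3% and 15.4% at unmarked positions.

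H3K27ac listed in only 1 genotype was found at a minority of gained and lost peaks. H3K27ac listed in tet-YAP but not in wild-type liver covered 603 gained peaks (7.88%, 7.30 to 8.51) and 4.18% of kept peaks, against 5.05% of all tet-YAP peaks, and 3.47% of lost peaks, against 4.03% of all wild-type peaks. H3K27ac listed in wild-type but not in tet-YAP liver covered 2.26% of gained and 2.10% of kept peaks, against 2.14% of all tet-YAP peaks, and 531 lost peaks (5.88%, 5.41 to 6.38), against 3.13% of all wild-type peaks. The order differed by position, at lost peaks as over all wild-type peaks. Among distal lost peaks H3K27ac was listed only in tet-YAP liver at 83 (2.53%) and only in wild-type liver at 453 (13.8%). The shares over all distal wild-type peaks were 4.70% and 7.91%. Among promoter-like lost peaks the numbers were 136 (3.10%) and 78 (1.78%), against 2.32% and 0.809% of all promoter-like wild-type peaks. The total length of the H3K27ac regions was 231.2 Mb in tet-YAP and 231.4 Mb in wild-type liver.

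The gained figure also depends on how many peaks had no wild-type H3K27ac. Among peaks that had no wild-type H3K27ac, the mark was listed in tet-YAP liver at 25.2% of 2396 gained, 28.0% of 3707 kept and 13.3% of 2353 lost peaks, so gained peaks did not exceed kept peaks on this count. Among such distal peaks, which had H3K4me1 alone, it was listed at 41.8% of 612 gained (38.0 to 45.8), 35.8% of 1253 kept (33.2 to 38.5) and 13.2% of 629 lost peaks (10.8 to 16.1). Among distal peaks that had wild-type H3K27ac, the mark was not listed in tet-YAP liver at 5.93% of gained, 6.51% of kept and 17.1% of lost peaks (15.7 to 18.6). Lost peaks thus had the lowest shares of H3K27ac that appeared and the highest shares that disappeared of the 3 classes on these counts.

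Seen from the H3K27ac regions, those new in tet-YAP liver were not mainly sites of gained TEAD. Of 3075 regions listed only in tet-YAP liver, 14.7% held a gained peak, 27.6% a kept peak and 60.0% no TEAD peak. Of 17272 tet-YAP regions also listed in wild-type liver, 22.2% held a gained and 68.4% a kept peak. The regions listed only in tet-YAP liver were narrower, with a median width of 4449 bp against 8107 bp. Of the 5685 gained peaks in tet-YAP H3K27ac regions, 3874 (68.1%) lay in a region that also held a kept TEAD peak, and 4461 of 6680 lost peaks (66.8%) in wild-type H3K27ac regions did likewise. Of the H3K27ac regions found in both genotypes, 68.4% of tet-YAP and 69.8% of wild-type regions held a kept peak. These count regions and not peaks, so they give no background rate for the shares of gained and lost peaks.

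TEAD at gained sites was looked up in the other transgenic livers, which the classes did not use. Of gained peaks 79.0% (78.1 to 79.9) overlapped a tet-Myc/YAP TEAD peak and 60.2% (59.1 to 61.3) a tet-Myc TEAD peak, against 92.2% and 84.3% of all tet-YAP peaks. Of lost peaks 64.9% (63.9 to 65.8) overlapped a tet-Myc/YAP peak and 56.2% (55.2 to 57.3) a tet-Myc peak, against 87.8% and 82.3% of all wild-type peaks. A gained site was thus listed in the other YAP-expressing liver more often than in the liver with Myc alone, and most gained sites were listed in a liver without the YAP transgene too. The tet-Myc/YAP list holds 52392 peaks and the tet-Myc list 44220, and the part of this in the difference was not tested.

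The split between the other livers differed by class. Gained peaks with TEAD in tet-Myc/YAP but not in tet-Myc liver numbered 1802 (23.6%), and those with the reverse pattern 364 (4.76%). Over all tet-YAP peaks these shares were lower, at 10.3% and 2.33%. For lost peaks the numbers were 1682 (18.6%) and 904 (10.01%), also above the 9.38% and 3.85% of all wild-type peaks. Unmarked lost peaks had the reverse order, with 51.3% listed in tet-Myc/YAP and 63.1% in tet-Myc liver. All unmarked wild-type peaks had it too, at 74.6% and 80.3%, and so did unmarked kept tet-YAP peaks, at 92.2% and 92.9%. Unmarked gained peaks were listed at 72.8% and 58.9%, against 83.2% and 77.2% of all unmarked tet-YAP peaks. At 20 and above, 93.7% of gained peaks were listed in tet-Myc/YAP and 72.6% in tet-Myc liver, and 85.2% and 83.1% of lost peaks. Of kept tet-YAP peaks at 20 and above, 99.6% were listed in tet-Myc/YAP and 98.8% in tet-Myc liver. At 40 and above, 92 of 94 gained peaks were listed in tet-Myc/YAP and 63 in tet-Myc liver, against 99.9% and 99.5% of 3596 kept peaks. Strong gained peaks were thus listed in tet-Myc/YAP liver nearly as often as kept peaks, and less often than kept peaks in tet-Myc liver.

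**Figure D4:**
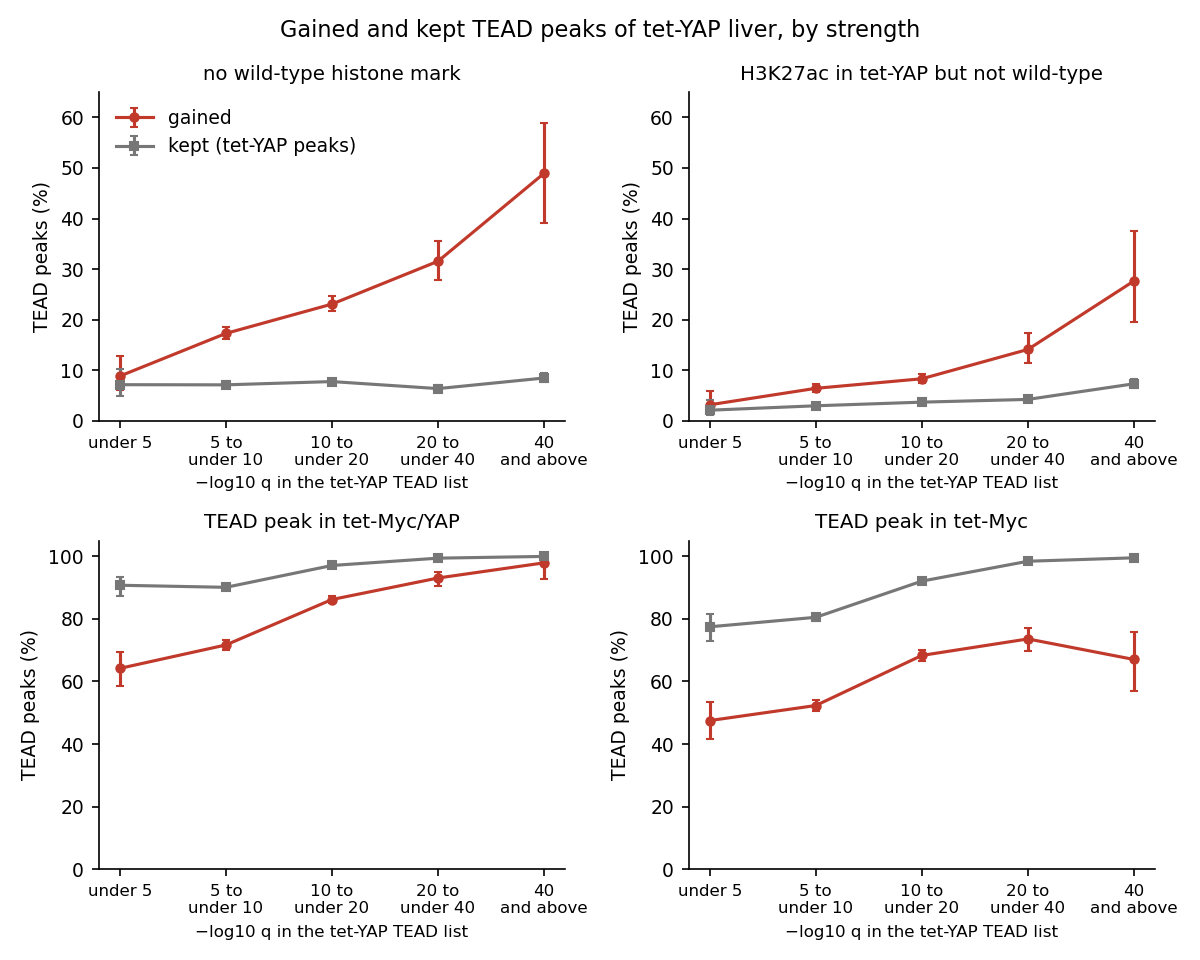
Share (%) of gained (red circles) and kept (grey squares) tet-YAP TEAD peaks, by −log10 q in the tet-YAP list, that had no wild-type histone mark, had H3K27ac in tet-YAP but not wild-type liver, or overlapped a TEAD peak of tet-Myc/YAP or tet-Myc liver, with Wilson 95% intervals as error bars. At 40 and above, 48.9% of gained peaks were unmarked, 27.7% had H3K27ac in tet-YAP liver only, 97.9% had a tet-Myc/YAP TEAD peak and 67.0% a tet-Myc TEAD peak.

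H3K27ac followed the same gradient. At 40 and above, 26 of 94 gained peaks (27.7%, 19.6 to 37.4) had H3K27ac in tet-YAP but not in wild-type liver, against 7.34% of kept peaks, and none had it in wild-type liver only. Among peaks of that strength with no wild-type H3K27ac, however, the mark was listed in tet-YAP liver at 47.3% of 55 gained and 45.8% of 577 kept peaks. The larger share among strong gained peaks thus came with their larger share of sites without wild-type H3K27ac.

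Kept sites were compared in height. Each kept tet-YAP peak was paired with the strongest wild-type peak it overlapped. The paired summits lay a median of 72 bp apart, with 61.1% within 100 bp, and the tet-YAP peak was the narrower in 65.7% of the 24835 pairs, with median widths of 576 bp in tet-YAP and 675 bp in wild-type liver. Log2 fold enrichment of paired peaks had a Pearson r of 0.59 and a Spearman rho of 0.50 over these pairs, as a description across sites that share the same pair of libraries.

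The median log2 ratio of fold enrichment, tet-YAP over wild-type, was 0.08 over all pairs. A ratio of at least 2-fold was found upward in 1157 pairs (4.66%) and downward in 498 pairs (2.01%). Median ratios were 0.01 at promoter-like, 0.19 at distal and 0.18 at unmarked kept sites. At distal sites 7.25% of pairs were at least 2-fold higher and 1.18% at least 2-fold lower in tet-YAP liver, while at promoter-like sites 2.78% were higher and 2.58% lower. These values moved with the strength of the wild-type peak, whose height is also the denominator of the ratio. Over all positions the median was 0.32 at wild-type −log10 q of 5 to 10 and −0.03 at 40 and above. A wild-type peak with no tet-YAP partner forms no pair. Of the 5011 pairs between 5 and 10, 0 were at least 2-fold lower in tet-YAP liver. Within wild-type peaks of −log10 q 40 and above, the medians were 0.17 at 695 distal, 0.03 at 146 unmarked and −0.09 at 1971 promoter-like sites. At that strength the pairs at least 2-fold higher and at least 2-fold lower in tet-YAP liver were 5.47% and 4.03% at distal, 1.37% and 6.85% at unmarked, and 1.78% and 9.64% at promoter-like sites. Between 20 and 40 the medians were 0.09 at distal, −0.02 at unmarked and −0.14 at promoter-like sites. Distal kept sites thus had the higher median ratio at both strengths. The upward median of unmarked sites over all pairs was not found among strong wild-type peaks. Medians of the other positions were lower there too, and the part of the selection by wild-type strength in this was not tested.

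Kept sites with a YAP peak were higher in tet-YAP liver. The median ratio was 0.27 at 984 kept sites with YAP and 0.08 at 23851 without. Sites with YAP were stronger, with median fold enrichments of 14.5 in tet-YAP and 11.4 in wild-type liver, against 6.66 and 6.33 at sites without. Within equal ranges of wild-type −log10 q the medians with and without YAP were 0.40 and 0.05 (10 to 20), 0.28 and −0.10 (20 to 40), and 0.21 and −0.08 (40 and above). The higher ratio at YAP sites thus held within each range of strength. It was also found at promoter-like (0.20 and 0.01), distal (0.34 and 0.18) and unmarked sites (0.33 and 0.17).

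**Figure D5:**
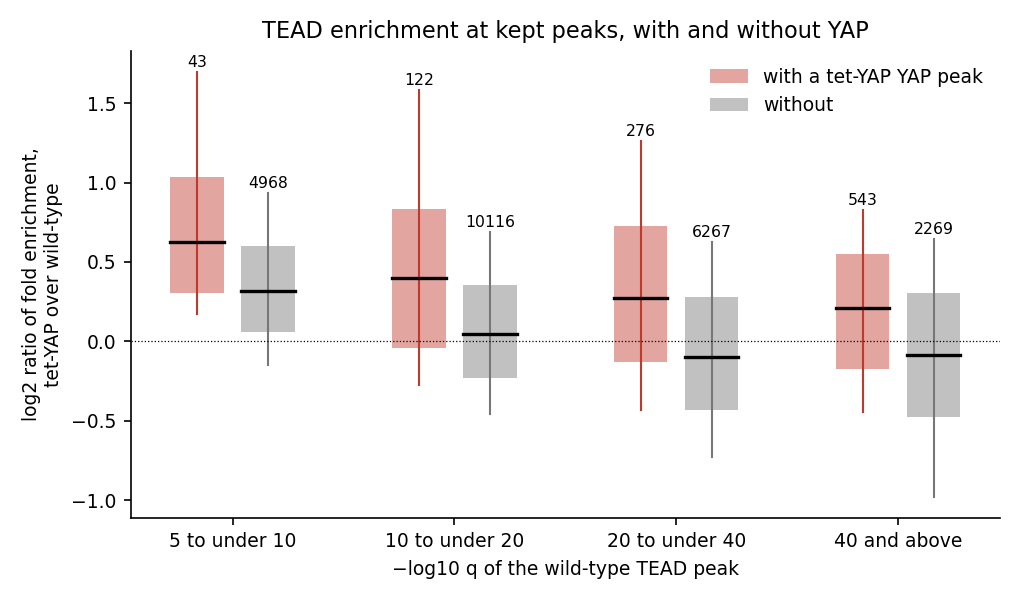
Log2 ratio of TEAD fold enrichment, tet-YAP over wild-type, at kept sites with (red) and without (grey) a tet-YAP YAP peak, by −log10 q of the wild-type TEAD peak. Black lines are medians, boxes run from the 25th to the 75th percentile, thin lines from the 10th to the 90th, and the number above each is its count of sites. Medians with YAP are above those without in every range shown, for example 0.21 and −0.08 at 40 and above.

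The sites with YAP were also higher in tet-Myc liver. Counted on the wild-type peaks that had a counterpart in the list named, the median log2 ratio over wild-type was 0.27 with and 0.11 without YAP in tet-YAP liver, 1.03 and 0.74 in tet-Myc/YAP liver, and 0.80 and 0.44 in tet-Myc liver, all with the YAP peaks of tet-YAP liver. At wild-type −log10 q of 40 and above, the medians were 0.21 and −0.04 in tet-YAP liver, 1.03 and 0.92 in tet-Myc/YAP liver, and 0.76 and 0.52 in tet-Myc liver. All of these ratios share the wild-type library as denominator. A higher ratio at sites with YAP was therefore also found in a liver that did not carry the YAP transgene.

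The TEAD ratio at kept sites differed with the genotypes in which H3K27ac was listed. The median log2 ratio was 0.25 at 1037 kept sites with H3K27ac in tet-YAP liver only, 0.07 at 20607 sites with H3K27ac in both genotypes, and −0.01 at 521 sites with it in wild-type liver only. It was 0.12 at 2670 sites with H3K27ac in neither genotype, above the median of sites with it in both. Of the first group, the 284 sites without any wild-type mark had a median of 0.40, the 449 distal sites 0.32 and the 304 promoter-like sites 0.06. At distal sites the median was 0.21 with H3K27ac in both genotypes and 0.12 with it in neither. At unmarked sites it was 0.16 with H3K27ac in neither. Promoter-like sites had medians of 0.01 with H3K27ac in both and −0.03 with it in neither. Sites where H3K27ac was listed only with the transgene thus had the higher TEAD ratio at distal and unmarked positions and little of it at promoters. These medians were not taken within ranges of wild-type strength.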

How the data were processed

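Chromatin of mouse liver was immunoprecipitated by the study for TEAD, YAP, Myc, RNA polymerase II and histone marks, 1 library per antibody and genotype. Per the labels, reads were aligned to mm9 with BWA 0.6.2, processed with SAMtools, and peaks called with MACS2 2.0.9, per library against an input. Per the file headers, the threshold for calling was 1e-05 on the p-value scale, at most 2 duplicates were kept, and narrow lists rest on 17.4 to 37.7 M reads. The authors deposited for each narrow peak its pileup (a signal in reads), its −log10 p and −log10 q, and its fold enrichment (a ratio to local background). Histone marks were deposited as regions with a score that was not used. Of the lists, 16 were used and 7 were not.

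Overlap, width, strength and position were computed in Python 3.11.15 with numpy 2.4.6, pandas 2.3.3 and scipy 1.17.1, tested on simulated intervals and checked with bedtools 2.31.1, which returned the same 7651 gained and 9033 lost peaks. Reweighting gave kept peaks the class's distribution over bins of −log10 q (edges 5, 10, 20 and 40) or of width (edges 400, 600 and 900 bp). The peaks named were the 3 of highest −log10 q in each class, among gained peaks with YAP, and within positions, of which some are printed. Members, lists and bins were chosen with earlier results of these data known. The lists of YAP/TEAD target, Hippo pathway and liver cell type marker genes were not run, because the gene tables used are on GRCm38 and no coordinates were converted, so the liver label was not checked against markers. Numbers in the headers of the tet-YAP TEAD, Myc and RNA polymerase II lists (158944) differ from those of the wild-type lists (160922) and of the YAP list (168764). Their meaning is not stated.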

Additional observations from a re-analysis of the deposited data

How the results depend on the processing

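No paired analysis was possible because each antibody had 1 library per genotype, and for the same reason no replicate could be left out. All results are shares of peaks, and 41 of 44 values under the 4 alternatives lay outside the interval of the value reported. The orders did not change: in all 5 settings gained peaks had lower promoter-like, YAP, Myc, RNA polymerase II and H3K27ac shares and a higher unmarked share than kept peaks, and a lower promoter-like share than lost peaks. With every narrow list at −log10 q of at least 10, 29.4% of tet-YAP peaks were gained and 29.1% of wild-type peaks lost, 36.7% of gained and 56.8% of lost peaks were promoter-like, 18.4% of gained peaks were unmarked, YAP overlapped 0.0603% of gained and 1.04% of kept peaks, Myc 8.07% and RNA polymerase II 34.7% of gained peaks, and H3K27ac 77.2% of gained and 77.1% of lost peaks. With only the counted TEAD list at that threshold, the same shares were 16.3% gained and 14.9% lost, 29.4% and 50.7% promoter-like, 25.0% unmarked, YAP 0.898% and 5.10%, RNA polymerase II 32.7%, and H3K27ac 71.2% and 69.9%. With the summit required inside the other peak, they were 26.7% gained and 31.4% lost, 37.7% and 50.5% promoter-like, 19.0% unmarked, YAP 0.254% and 2.56%, Myc 10.9%, RNA polymerase II 34.4%, and H3K27ac 76.2% and 74.1%. With windows of 250 bp on either side of the summit, they were 26.5% gained and 28.7% lost, 41.5% and 50.8% promoter-like, 18.4% unmarked, Myc 15.3%, RNA polymerase II 41.4%, and H3K27ac 77.1% and 73.2%. The lost share thus exceeded the gained share in the lists as deposited, with the summit rule and with windows, and fell below it under both thresholds; the cause was not tested. Precision is limited by single libraries and by the sparse YAP list, of which 193 of 1328 peaks reach −log10 q 10.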
